A study of Mus musculus with 6 samples.

Results

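Lce6a (late cornified envelope 6A) and 8 further genes of the mouse epidermal differentiation complex were followed in primary hepatocytes stimulated with bone morphogenetic protein 2 (BMP2). The 9 genes were chosen by name, Lce6a because it had fallen in an earlier analysis of these same data and the others because they lie in the same complex on chromosome 3. Probe sets, which this array numbers by gene, were found for 8 of the 9 genes among 21115 probe sets in all, and the expression of Flg (filaggrin) was not analysed here. The question was whether Lce6a fell alone.

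The study compared 3 cultures of C57BL/6 hepatocytes given 50 ng/ml recombinant BMP2 for 24 hours with 3 control cultures kept without it. The cells came from 3 mice and had been plated on collagen. Dexamethasone was present in the earlier media and is not listed for the medium of the last change. The BMP2 stock was made up in dilute hydrochloric acid, and the labels do not say whether the control cultures received that acid. All levels are the authors' log2 expression values, on which a difference of 1 is a 2-fold change.

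The epidermal differentiation complex is a cluster of genes whose products build the cornified envelope, the cross-linked protein shell of the outermost skin cells. Late cornified envelope (LCE) proteins, small proline-rich (SPRR) proteins and involucrin are substrates that transglutaminases join into that shell, and filaggrin bundles the keratin filaments beneath it. The S100 genes at the ends of the cluster encode small calcium-binding proteins, several of which are also made in many cell types outside the skin.

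The sequences around 3 transcript starts are shown because these genes gave different patterns: Lce6a fell, its near neighbour Ivl (involucrin) lay close to the lowest values of the array, and Sprr1a lay close to the highest. Each runs 5′ to 3′ over 250 bases before and 50 after the start, from RefSeq on GRCm38.p6. Capitals mark matches to the AP-1 motif TGANTCA and to the TATA motif TATAAA, searched on both strands.
Lce6a, chr3:92621611-92621910, minus strand: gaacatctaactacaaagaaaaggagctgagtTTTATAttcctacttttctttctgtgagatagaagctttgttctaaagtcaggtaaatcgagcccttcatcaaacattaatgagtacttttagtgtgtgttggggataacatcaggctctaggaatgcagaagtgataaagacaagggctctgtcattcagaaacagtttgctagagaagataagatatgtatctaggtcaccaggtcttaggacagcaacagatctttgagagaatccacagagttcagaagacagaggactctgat
Ivl, chr3:92573686-92573985, minus strand: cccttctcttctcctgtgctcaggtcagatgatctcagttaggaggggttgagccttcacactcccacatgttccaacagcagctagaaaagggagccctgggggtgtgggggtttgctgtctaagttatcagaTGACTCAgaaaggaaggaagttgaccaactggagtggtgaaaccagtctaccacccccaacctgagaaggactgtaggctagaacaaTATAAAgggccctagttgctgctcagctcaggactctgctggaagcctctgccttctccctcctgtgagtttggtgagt
Sprr1a, chr3:92485832-92486131, minus strand: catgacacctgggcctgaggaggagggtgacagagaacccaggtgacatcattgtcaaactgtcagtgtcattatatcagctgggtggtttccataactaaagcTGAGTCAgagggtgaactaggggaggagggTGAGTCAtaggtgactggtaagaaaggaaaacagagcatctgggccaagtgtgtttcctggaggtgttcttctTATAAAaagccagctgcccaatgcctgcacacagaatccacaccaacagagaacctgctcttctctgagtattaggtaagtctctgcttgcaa

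Such 300-base windows were listed for 8 of the 9 genes. The AP-1 motif, bound by Fos and Jun factors, was searched with any middle base. It was found in 5 of these 8 (Sprr1a, Sprr1b, Ivl, Flg and S100a11) and in 7.81% of 32851 windows of all genes. Sprr1b and Flg held it as TGAATCA, the others with G or C in the middle. Sprr1a held the motif in 2 places, beginning 146 and 116 bases before the start, and Ivl in 1, beginning 116 bases before it. The windows of Lce6a, Smcp and S100a6 held no match to these letters. TATAAA was found in 5 of the 8 windows, against 13.6% of all windows. In Sprr1a it began 43 bases and in Ivl 29 bases before the start, whereas the match of Lce6a was on the opposite strand and began 218 bases before it. Of motifs bound by SMAD factors, which carry BMP signals, GGCGCC was found in 0 of the 8 windows and in 11.9% of all windows. The core CAGAC, or GTCTG on the other strand, was found in 4 of the 8 (Sprr1b, Flg, Smcp and S100a6) and in 49.6% of all windows. In Flg a CAGAC match overlapped the AP-1 match. These matches describe the windows and no binding was measured.

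Lce6a was lower in every BMP2 culture. Its log2 level was 8.05, 8.08 and 8.27 in BMP2 replicates 1, 2 and 3, against 9.95, 10.36 and 10.13 in control replicates 1, 2 and 3. The groups did not overlap, and the highest BMP2 value lay far below the lowest control value. The means were 8.13 ± 0.12 in BMP2 and 10.15 ± 0.21 in control samples (SD, n = 3 each), a difference of -2.01 ± 0.12 (SE), so the level was 4.03-fold lower with BMP2. Within the replicate numbers the differences were -1.89, -2.28 and -1.86. This was the decrease of rank 2 among all 21115 probe sets. Because the gene was chosen for this fall, these values are a description and carry no test. In RNA from whole cultures, fewer cells making a transcript and less transcript per cell cannot be told apart.

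**Figure D1:**
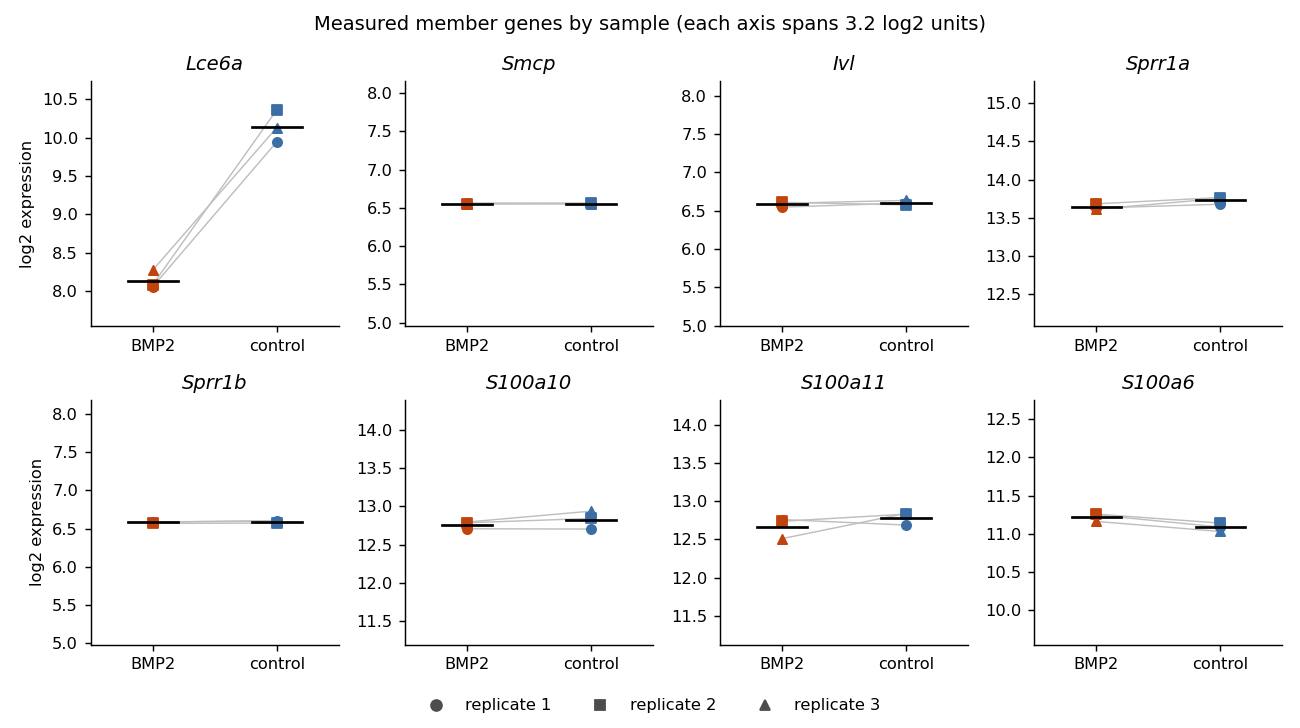
Log2 expression of the 8 measured genes in each sample, BMP2 on the left and control on the right of each panel, with markers for the replicate numbers, grey lines joining samples of the same number and black bars for the group means. The Lce6a points lie at 8.05 to 8.27 in BMP2 against 9.95 to 10.36 in control samples, while the points of the other 7 genes lie nearly level.

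The genes beside Lce6a lay near the lowest value recorded for any probe set, 6.35. In the RefSeq gene order the 3 measured genes before it are Sprr4, Ivl and Smcp, and the 3 after it are Lce1a1, Lce1b and Lce1a2. Ivl, a main early component of the cornified envelope, stood at 6.55, 6.61 and 6.60 in BMP2 against 6.60, 6.58 and 6.63 in control samples. Smcp, which encodes a cysteine-rich protein of sperm mitochondria, stood at 6.56, 6.55 and 6.55 in BMP2 against 6.56, 6.56 and 6.55 in control samples. The groups of both genes overlapped. Ivl differed by -0.02 ± 0.02 (limma adjusted p = 0.89) and Smcp by -0.0003 ± 0.007 (limma adjusted p = 0.996, SE). Over these 6 neighbours the mean levels reached at most 6.64 and the differences at most 0.02 in size. At such levels a fall could not have been seen, and whether the neighbours changed is not known from these values. RefSeq also places a long non-coding RNA gene, Gm35639, across Lce6a on the opposite strand. It has no named probe set here, and which strand and which part of the gene the Lce6a probe set reads was not given in the sources used here.

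The SPRR genes gave a bright and a dim member. Sprr1a, a cornified envelope precursor that is also known from injured neurons and stressed heart muscle, stood at 13.63, 13.68 and 13.61 in BMP2 against 13.68, 13.77 and 13.75 in control samples. Each BMP2 value lay below the control value of its own number, but the groups overlapped. The difference was -0.09 ± 0.03 (SE, limma adjusted p = 0.33), with a 95% interval of -0.17 to -0.01. The highest value of any probe set was 14.02, so the levels of Sprr1a lay where changes may be compressed. Sprr1b, its close relative, stood at 6.58, 6.57 and 6.59 in BMP2 against 6.60, 6.57 and 6.60 in control samples. It differed by -0.01 ± 0.01 (SE, limma adjusted p = 0.86), with overlapping groups near the lower limit.

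S100a10, whose product pairs with annexin A2 at the cell membrane, stood at 12.71, 12.79 and 12.79 in BMP2 against 12.70, 12.84 and 12.94 in control samples. The groups overlapped, with a difference of -0.07 ± 0.06 (SE, limma adjusted p = 0.85). S100a11, whose product binds annexin A1, stood at 12.76, 12.74 and 12.51 in BMP2 against 12.69, 12.83 and 12.84 in control samples. Its groups overlapped too, and its lowest value was that of BMP2 replicate 3. The difference was -0.12 ± 0.08 (SE, limma adjusted p = 0.73), and it ran from -0.17 to -0.04 with 1 sample left out. Without both samples of replicate number 3, a removal chosen after seeing the data, it was -0.01, and that of S100a10 was -0.03.

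S100a6 (calcyclin) was the member with a positive difference. It stood at 11.25, 11.26 and 11.16 in BMP2 against 11.09, 11.14 and 11.03 in control samples, and the groups did not overlap. Over all probe sets 8.42% had BMP2 samples wholly above and 8.25% wholly below the control samples. The difference was 0.14 ± 0.04 (SE), with a limma adjusted p of 0.24. The differences within the replicate numbers were 0.16, 0.12 and 0.13. With the replicate number as a block S100a6 passed the threshold (limma adjusted p = 0.041), in a fit where 3.32% of all probe sets passed and 1.68% were higher.

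In the fit without a block, which ignores the replicate numbers, 1 of the 8 measured members fell, 0 rose and 7 did not pass. The threshold was 0.05 on the adjusted p, and Lce6a was the one that fell. Over all probe sets 0.573% were lower and 0.616% higher by the same rule. Nothing is read from the members' count because Lce6a was chosen from this contrast. Once the replicate number was a block, 2 members passed, Lce6a lower and S100a6 higher, where 3.32% of all probe sets passed. In fits with no block the count became 0 once BMP2 replicate 1 was left out, at a Lce6a difference of -1.97. It was also 0 once both samples of replicate number 3 were left out, at -2.09. The 95% intervals of the other 7 members all lay between -0.33 and 0.24. That of Lce6a, -2.32 to -1.70, describes a gene chosen for its fall and is no test against them. Of the 8 members 5 had a mean level of at least 7 over all samples and 3 (Ivl, Smcp and Sprr1b) lay below it. At such levels a fall could not have been seen, so the narrow intervals of these 3 do not show that they stayed level.

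The rest of the complex was read from a list of 57 further genes, of which 54 had a probe set. None of the 54 passed in limma in either direction, where 1.19% of all probe sets did, and 4 (7.41%) had an unadjusted p under 0.05, against 12.5% of all probe sets. Their median difference was -0.003, against 0.001 over all probe sets, and 31 of the 54 (57.4%) lay below 0, against 48.8% of all probe sets. Levels were mostly low: 47 of the 54 had a mean under 7, against 12236 of all 21115 probe sets. The LCE1 and SPRR2 genes are close copies of each other, and which of them a probe set reads was not given here, so their separate values are uncertain.

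Crct1 (cysteine-rich C-terminal 1), a small gene of the same cluster, was the member of that list with the largest difference. Its level was 9.11, 8.99 and 9.85 in BMP2 replicates 1, 2 and 3, against 10.47, 10.02 and 10.65 in control replicates 1, 2 and 3. The groups did not overlap, and replicate 3 was the highest sample of each group. The difference was -1.06 ± 0.29 (SE) and did not pass (limma adjusted p = 0.22), also with the replicate number as a block (limma adjusted p = 0.057). Within the replicate numbers it differed by -1.36, -1.04 and -0.79. The 95% interval of Crct1 was -1.80 to -0.33. Its decrease had rank 9 among all 21115 probe sets, of which 10 (0.0474%) were lower by 1 or more. The difference of Lce6a minus that of Crct1 was -0.53, -1.24 and -1.07 in replicates 1, 2 and 3, and this gap between the genes was not tested.

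**Figure D2:**
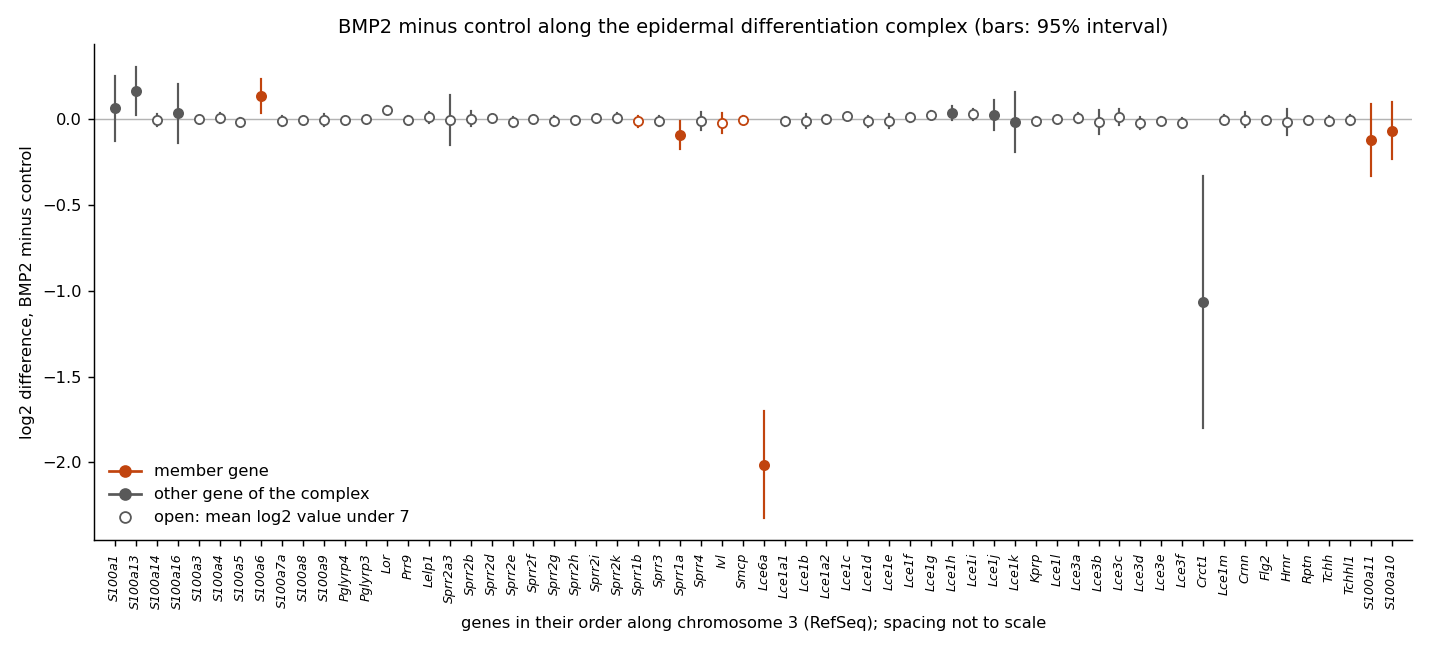
Difference in log2 level, BMP2 minus control, of the 62 measured genes of the complex in their order along chromosome 3, with 95% intervals from limma, members in orange, other genes in grey and open circles for genes with a mean under 7. Lce6a at -2.01 and Crct1 at -1.06 stand below a row of genes between -0.12 and 0.17.

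Lor (loricrin), the main protein of the cornified envelope, stood at 6.72, 6.74 and 6.74 in BMP2 against 6.68, 6.68 and 6.68 in control samples. Its groups did not overlap, at a difference of 0.06 ± 0.01 close to the lower limit (SE, limma adjusted p = 0.071). S100a13, a further S100 gene, stood at 7.48, 7.63 and 7.65 in BMP2 against 7.49, 7.39 and 7.38 in control samples. Its groups overlapped, and the difference was 0.17 ± 0.06 (SE, limma adjusted p = 0.31).

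Of the 62 measured genes of the complex, members included, 12 had a mean level of at least 7. Of these 12, 6 lay below 0, Lce6a among them, against 4053 of the 8879 probe sets with such a mean in the whole series. Apart from Lce6a, which was chosen for its fall, Crct1 alone among the other 11 differed by 1 or more in size. Of the 8879 probe sets 43 (0.484%) did so. Leaving Lce6a aside, groups did not overlap for 6 of 61 genes (9.84%), 1 lower and 5 higher with BMP2, against 16.7% of all probe sets. The 50 genes with a mean under 7 differed by at most 0.06 in size.

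**Figure D3:**
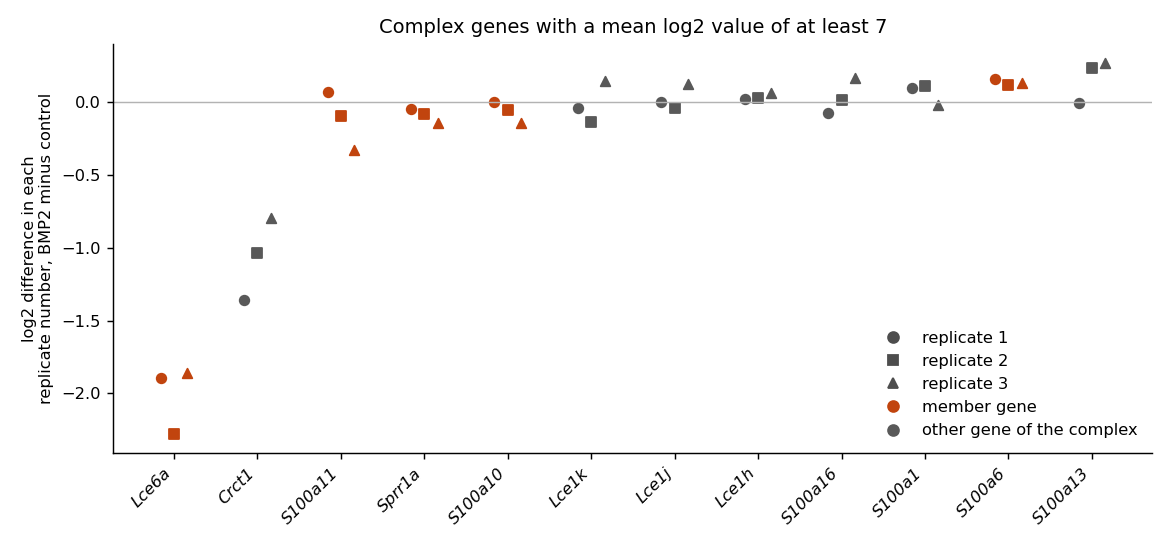
Difference in log2 level, BMP2 minus control, within replicate numbers 1, 2 and 3 for the 12 genes of the complex with a mean of at least 7, members in orange and other genes in grey. All 3 differences are below -1.8 for Lce6a and between -1.36 and -0.79 for Crct1. For the other 10 genes they lie between -0.33 (S100a11) and 0.27 (S100a13).

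Cornified envelope and keratinocyte genes that lie elsewhere in the genome were followed for comparison. Of 45 such genes, all measured, 0 passed in limma, against 1.19% of all probe sets, and 5 (11.1%) had an unadjusted p under 0.05, against 12.5% of all probe sets. Their median difference was 0.003, and 39 of the 45 had a mean under 7. Klf4, a transcription factor of the epidermal barrier, stood at 6.86, 6.89 and 6.86 in BMP2 against 6.79, 6.80 and 6.78 in control samples (difference 0.08 ± 0.01 SE, limma adjusted p = 0.067). Ppl (periplakin), a linker of the envelope to keratin filaments, differed by 0.18 ± 0.06 (limma adjusted p = 0.29). Grhl1, a grainyhead-like transcription factor, differed by 0.05 ± 0.02 (limma adjusted p = 0.30).

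The partners of S100 proteins included a gene that fell in the fit without the block. Of 19 annexins and other partners 1 (5.26%) fell, 0 rose and 18 did not pass, where 0.573% of all probe sets fell. The median difference was 0.001, both for these partners and over all probe sets. An unadjusted p under 0.05 was found for 7 of the 19 (36.8%), against 12.5% of all probe sets. Groups did not overlap for 8 (42.1%), 6 lower and 2 higher with BMP2, against 16.7% of all probe sets. A mean of at least 7 was reached by 14 of the 19, against 8879 of all 21115 probe sets. Plat (tissue plasminogen activator), a protease that S100a10 and annexin A2 bind at the cell surface, stood at 7.56, 7.75 and 7.58 in BMP2 against 8.09, 8.02 and 8.04 in control samples. The groups did not overlap, and the level fell by 0.42 on the log2 scale (SE 0.06, limma adjusted p = 0.048). With the replicate number as a block it did not pass (limma adjusted p = 0.071), and of the 6 fits without 1 sample it passed in the one without BMP2 replicate 2. Anxa2 (annexin A2), the partner of S100a10, stood at 12.31, 12.38 and 12.37 in BMP2 against 12.27, 12.21 and 12.27 in control samples. It differed by 0.10 ± 0.03 without overlap (SE, limma adjusted p = 0.19). Anxa1 (annexin A1), the partner of S100a11, lay near the lower limit and differed by -0.05 ± 0.01 (limma adjusted p = 0.16). Cacybp, the calcyclin-binding protein that partners S100a6, differed by -0.02 ± 0.01 (limma adjusted p = 0.44). Anxa7 (annexin A7) differed by 0.15 with overlapping groups and did not pass in the fit without the block (limma adjusted p = 0.34). It was the partner that passed once the replicate number was a block (limma adjusted p = 0.045), a fit in which 3.32% of all probe sets passed.

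**Figure D4:**
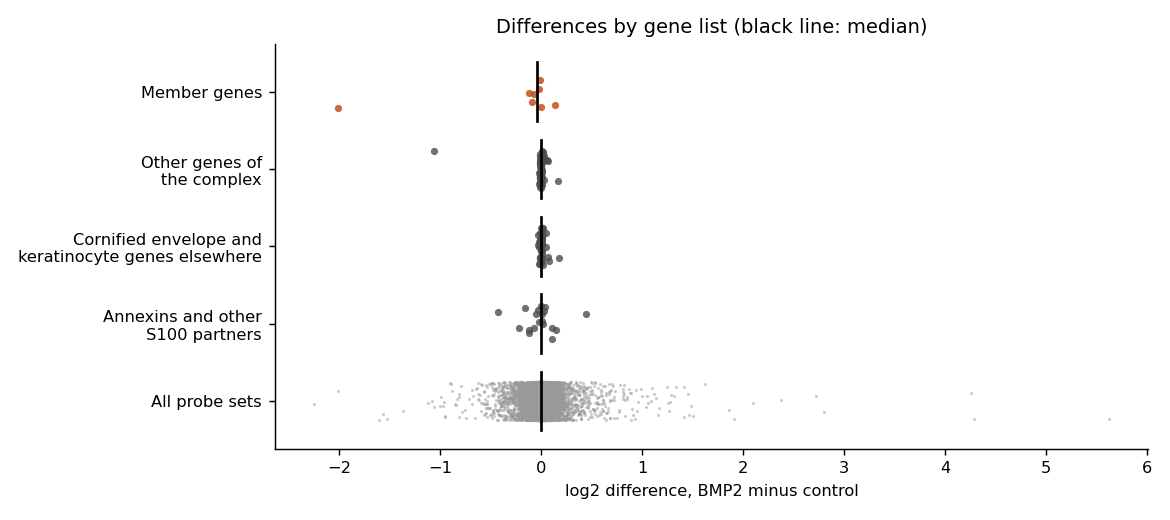
Difference in log2 level, BMP2 minus control, for the 8 members, 54 other genes of the complex, 45 cornified envelope and keratinocyte genes elsewhere, 19 S100 partners and all 21115 probe sets, each point a gene or probe set and each black line a median. The medians of the 4 lists lie between -0.04 and 0.003, beside 0.001 over all probe sets, and Lce6a and Crct1 lie apart on the left.

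The probe sets whose pattern over the 6 samples was most like that of Lce6a were Slco3a1, Timp2, Spcs3, Cdh17 and Edn1. Likeness was the root mean square difference of log2 levels after each gene was centred on its control mean, and it was 0.314 for Slco3a1, 0.344 for Timp2, 0.347 for Spcs3, 0.416 for Cdh17 and 0.527 for Edn1. Crct1 came at rank 10 among the named probe sets, with 0.757. The measure mostly reflects the size of the fall, since levels were centred on the control mean and not scaled. It uses the same contrast from which Lce6a was chosen.

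Most markers of other cell types were near the lower limit in these cultures, with Sox9, Krt19 and Cd68 furthest above it. All 7 measured keratinocyte markers (Krt5, Krt14, Krt1, Krt10, Trp63, Krtdap and Lor) had a mean under 7, and their average lay between 6.66 and 6.67 in BMP2 and between 6.65 and 6.66 in control samples. All 5 granulocyte and all 5 sperm markers also lay under 7. Of the endothelial, stellate and macrophage lists 5 of 6 markers each were under 7. The markers above it were Cdh5 (endothelial, mean 7.15), Col1a1 (stellate, mean 7.08) and Cd68. The macrophage and lysosome marker Cd68 stood at 7.51, 7.44 and 7.27 in BMP2 against 8.10, 7.68 and 7.46 in control samples. Its groups overlapped at a difference of -0.34 ± 0.18 (SE, limma adjusted p = 0.56), and each BMP2 value lay below the control value of its own number. The average of the macrophage list was 6.70 to 6.74 in BMP2 and 6.73 to 6.84 in control samples. In the hepatocyte list 8 of 9 markers were at 7 or above, and the average of the 9 was 12.2 to 12.4 in BMP2 against 12.0 to 12.1 in control samples. Cps1 (6.99 in BMP2 and 6.90 in control samples) was the hepatocyte marker below that level, and Hnf4a rose by 0.82 ± 0.06 (SE, limma adjusted p = 0.0097). Ttr (transthyretin) differed by 0.68 ± 0.11 (SE, limma adjusted p = 0.073) and passed in the blocked fit (limma adjusted p = 0.017). Of 4 measured cholangiocyte markers Krt7 and Epcam were under 7, and the average of the 4 was 7.97 to 8.01 in BMP2 and 7.93 to 8.08 in control samples. Krt19 stood at 8.25 in BMP2 and 8.77 in control samples (difference -0.51 ± 0.08 SE, limma adjusted p = 0.073). Sox9 stood at 10.40 in BMP2 and 9.94 in control samples (difference 0.46 ± 0.10 SE, limma adjusted p = 0.14). Sox9 passed with the replicate number as a block (limma adjusted p = 0.039), and Krt19 did not (limma adjusted p = 0.10). In that fit 3.32% of all probe sets passed. The part of these shifts in the fall of Lce6a was not tested.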

How the data were processed

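RNA from 3 BMP2 and 3 control hepatocyte samples was measured on an Affymetrix array. The deposited log2 values came from RMA (robust multi-array averaging), as the submitters' processing notes state. No RMA version, probe grouping or filter is given in the sources used here. The table held 21115 probe sets, of which 20405 had a gene symbol in the platform annotation and 710 were tested unnamed. Sample medians lay between 6.80 and 6.81, and the values were not normalized further.

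The comparison of BMP2 with control used limma 3.58.1 (lmFit, then eBayes, two-sided) under R 4.3.3. Its p-values were adjusted by Benjamini-Hochberg across the full set of 21115 probe sets, and 0.05 was the threshold. No filter on dim probe sets was used, and a mean of 7 served to describe low levels. Of the 21115 probe sets 12236 lay under it. The precision rests on 3 samples per group. On simulated data with the same number of probe sets the procedure recovered 76.8% of changes of 0.25 and 99.4% of changes of 1 on the log2 scale. Of its calls 5.34% were false. The simulated noise was independent and normal, without pairing, and dim probe sets were given changes of full size. The real data differ in these points, so the rates check the procedure and do not give the power for the genes named here.

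The members and the gene lists were chosen with earlier results of these data known. Named genes were all members, the list genes past the threshold or otherwise the 3 with the smallest p, the S100 partners Anxa2, Anxa1 and Cacybp, 3 neighbours on each side and the 5 most alike probe sets. Anxa7 and some cell type markers were named outside this rule after their values were seen. The design text gives 3 mice, and same-numbered samples deviated together from their group means (correlations of 0.48, 0.58 and 0.61), so the numbers pair the samples. The fit described above ignores the pairing. Alternatives were the replicate number as a block, a filter on dim probe sets, an intensity trend with robust estimation, renewed quantile normalization, median centring and leaving out each sample.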

Additional observations from a re-analysis of the deposited data

How the results depend on the processing

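Every alternative kept Lce6a below 0, with differences of -2.11 to -1.90 with any 1 sample left out. Without both samples of replicate number 3, an alternative chosen after seeing the data, the difference was -2.09. These values describe a gene chosen for its fall. The count of members past the threshold was 0 in that fit and without BMP2 replicate 1, and 1 in the other fits without 1 sample. With the replicate block, which pairs the samples, 2 members passed, Lce6a and S100a6 (0.14, limma adjusted p = 0.041). The adjusted p of S100a6 over its alternatives ran from 0.041 to 0.51, and its difference was 0.11 to 0.17 with 1 sample left out. Among the other genes of the complex 1, Lor, passed with an intensity trend and robust estimation (limma adjusted p = 0.047), as did Klf4 elsewhere in the genome (limma adjusted p = 0.046), and 0 genes of the complex outside the members passed in every fit that left out 1 sample. Plat did not pass with median centring (limma adjusted p = 0.056), and with 1 sample left out it passed without BMP2 replicate 2 (limma adjusted p = 0.019) and in no other such fit. Crct1 stayed below 0 and passed in no alternative. Its difference ran from -1.33 to -0.90 with 1 sample left out. Its limma adjusted p was 0.073 with the filter on dim probe sets and also with the intensity trend. Smcp changed sign with renewed quantile normalization (0.000434) and median centring (0.00130), and ran from -0.00407 to 0.00179 with 1 sample left out. Over all probe sets 251 passed, against 702 with the replicate block, 443 among probe sets with a mean of at least 7, 468 with the intensity trend, 114 without both samples of number 3, and 30 to 223 with 1 sample left out. The block changed no other call among the members. The filter removed Ivl, Smcp and Sprr1b. Signal near the lower limit of the array restricts what these genes can show.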
